A study of Mus musculus with 6 samples.

Results

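The H3K27ac peaks of 8 genes through which melanocytes receive and pass on signals were compared between low pigment (LP) and high pigment (HP) cells. The genes were the receptors Mc1r, Kit, Ednrb and Erbb3, the G protein gene Gnas, the protein kinase A subunit gene Prkar1a, and the phosphodiesterase genes Pde4b and Pde4d. A peak belonged to a gene when it overlapped the gene in GENCODE (mm10) or the 20 kb on either side, and peaks of the 4 lists that shared at least 1 bp were merged into regions. By this rule the 8 genes held 226 of the 182956 regions of the series, and 11 of the 12084 regions that carried a peak in all 4 libraries. The windows had a summed length of 2560 kb, of which Pde4d alone took 1540 kb.

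The cells were B16 F10, a mouse melanoma line labelled as melanocytes, that had been seeded at 100 cells per cm2 and taken at day 5 of culture. LP and HP cells were sorted from the same culture by the intensity of their side scatter, a flow cytometry signal that rises with pigment granules, so both groups shared line, medium, density and day and differed in the sort gate. Each population had 2 replicate H3K27ac libraries, and 2 IgG libraries of unsorted cells served only as the authors' controls for peak calling. Nothing in the labels says that the replicates came from separate cultures. The p-values therefore measure the spread between these libraries, pooled over all regions tested, which may be technical.

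H3K27ac, the acetylation of lysine 27 of histone H3, marks active promoters and enhancers. In melanocytes, alpha-MSH binds Mc1r, which acts through Gs-alpha, the product of Gnas, to raise cAMP; cAMP releases the catalytic subunits of protein kinase A from regulatory subunits such as Prkar1a, and the kinase drives CREB and through it Mitf, the main regulator of pigment genes. Phosphodiesterases of the PDE4 family break cAMP down again and so damp this signal. Kit, the receptor of stem cell factor, Ednrb, the endothelin receptor, and Erbb3, a neuregulin receptor, act in the migration, survival and growth of the melanocyte lineage.

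The sequences on which the comparison turns were read from the mm10 assembly, 5′ to 3′ on the strand of the gene, with capitals for matches on either strand to the E-box forms CATGTG and CACGTG, the cAMP response element TGACGTCA and its core TGACG, and the SOX cores ACAAAG and ACAATG. The core TGACG lies within TGACGTCA, so that a match to the long form also counts for the short form. The 201 bp around the summit are shown for the Pde4d promoter that passed the test, for the intronic Pde4d region called in all 4 libraries, for the intronic Pde4d region with the highest scaled pileup among those called in both HP libraries and neither LP library, for the Pde4d region of that kind that held a cAMP response element, and for the promoters of Erbb3 and Gnas. For Mc1r, Pde4b and Prkar1a, whose summit windows lie in or beside exons, the 250 bp upstream of a transcript start in RefSeq (GRCm38.p6) are shown instead.
Pde4d promoter of Pde4d-218, chr13:109260372-109260572, plus strand: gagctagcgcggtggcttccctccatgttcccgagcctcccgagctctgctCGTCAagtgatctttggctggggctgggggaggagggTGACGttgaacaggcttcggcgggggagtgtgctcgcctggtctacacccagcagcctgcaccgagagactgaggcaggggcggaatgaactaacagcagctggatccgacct
Pde4d intron, called in all 4 libraries, chr13:109242694-109242894, plus strand: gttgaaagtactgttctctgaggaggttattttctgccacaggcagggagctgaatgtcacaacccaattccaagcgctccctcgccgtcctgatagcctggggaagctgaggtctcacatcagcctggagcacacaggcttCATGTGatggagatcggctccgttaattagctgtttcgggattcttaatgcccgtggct
Pde4d intron, called in HP only, chr13:109240038-109240238, plus strand: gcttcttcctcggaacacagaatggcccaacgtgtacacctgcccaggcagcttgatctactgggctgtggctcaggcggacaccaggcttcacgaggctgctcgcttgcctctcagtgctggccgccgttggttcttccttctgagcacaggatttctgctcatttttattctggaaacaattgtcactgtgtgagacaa
Pde4d intron, called in HP only with a cAMP response element, chr13:109536720-109536920, plus strand: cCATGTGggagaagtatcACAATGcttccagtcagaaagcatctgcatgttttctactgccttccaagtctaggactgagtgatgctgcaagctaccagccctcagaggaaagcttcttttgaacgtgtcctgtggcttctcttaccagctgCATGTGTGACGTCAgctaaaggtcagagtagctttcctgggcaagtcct
Erbb3 promoter, chr10:128590284-128590484, minus strand: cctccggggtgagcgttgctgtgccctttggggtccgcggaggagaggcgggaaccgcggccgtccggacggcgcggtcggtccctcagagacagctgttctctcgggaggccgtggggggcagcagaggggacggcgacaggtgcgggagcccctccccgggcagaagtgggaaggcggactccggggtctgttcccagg
Gnas promoter of Gnas-205, chr2:174330439-174330639, plus strand: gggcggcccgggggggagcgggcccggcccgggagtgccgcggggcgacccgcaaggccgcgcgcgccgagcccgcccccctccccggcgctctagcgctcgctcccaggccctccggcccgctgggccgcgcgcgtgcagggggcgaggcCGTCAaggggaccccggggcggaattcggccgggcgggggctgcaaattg
Mc1r upstream of the start, chr8:123406832-123407081, plus strand: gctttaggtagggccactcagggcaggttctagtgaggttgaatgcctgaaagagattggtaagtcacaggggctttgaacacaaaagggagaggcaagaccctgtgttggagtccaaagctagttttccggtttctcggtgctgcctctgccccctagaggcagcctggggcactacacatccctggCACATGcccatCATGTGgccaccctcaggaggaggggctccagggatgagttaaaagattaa
Pde4b upstream of the start of Pde4b-203, chr4:102569810-102570059, plus strand: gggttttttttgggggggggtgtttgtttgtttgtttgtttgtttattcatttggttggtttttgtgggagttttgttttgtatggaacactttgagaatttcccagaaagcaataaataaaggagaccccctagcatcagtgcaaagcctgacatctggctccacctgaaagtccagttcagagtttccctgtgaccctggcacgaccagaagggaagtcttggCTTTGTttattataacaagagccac
Prkar1a upstream of a start, chr11:109650699-109650948, plus strand: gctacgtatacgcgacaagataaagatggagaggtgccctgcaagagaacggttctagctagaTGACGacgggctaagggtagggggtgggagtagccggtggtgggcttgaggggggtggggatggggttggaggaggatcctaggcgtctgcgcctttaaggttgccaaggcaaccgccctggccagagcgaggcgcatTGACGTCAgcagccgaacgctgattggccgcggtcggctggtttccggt
The Gnas window had 83.6% G and C bases and 32 CpG pairs, and the Erbb3 window had 73.1% and 21, whereas the window at Pde4d-218 had 63.7% and 12. TGACG was found 2 times in the Pde4d-218 window and 1 time in the Gnas window. The Mc1r sequence held CATGTG 2 times, and the Prkar1a sequence held TGACGTCA. RefSeq had 19 promoter entries for 7 of the 8 genes.

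Among the 42 regions of the 8 genes that were called in at least 2 libraries, 7 (16.7%) held CATGTG in the 201 bp at the summit, against 11% of the 33437 such regions on chromosomes 1 to 19, X and Y. CACGTG was present in 3 (7.14% against 3.79%), TGACGTCA in 1 (2.38% against 0.251%) and TGACG in 8 (19% against 11.2%). ACAAAG was present in 5 (11.9% against 12.9%) and ACAATG in 5 (11.9% against 5.78%). Of all 32851 RefSeq promoters of 300 bp, 14.2% held CATGTG, 7.15% CACGTG, 1.79% TGACGTCA, 20.8% TGACG, 18.7% ACAAAG and 12.6% ACAATG. These matches describe the letters in the windows and were not tested.

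The lists of the authors gave 57942 to 71529 peaks per library from 11467942 to 15353176 fragments. For each peak the pileup, the count of fragments over its summit, was divided by the fragments of the library and multiplied by 1000000, which is called the scaled pileup here. At the 8 genes the peaks were shallow: 76.6% and 44.4% of those in LP and 58.6% and 48.5% of those in HP rested on at most 10 fragments, and the weakest peak of each list had 5 or 6. Sites below the threshold of the peak caller have no entry in a list, so that the absence of a peak does not mean absence of the mark. Of the 7 melanocyte markers (Mitf, Sox10, Tyr, Tyrp1, Dct, Pmel and Mlana), 5 had a peak within 1 kb of a start in all 4 libraries. The scaled pileups of the 7 summed to 9.85 and 10.3 in LP against 20.5 and 30.9 in HP. LP replicate 1 had no peak at Tyrp1 and Mlana, which entered its sum as 0. Over the 12084 regions with a peak in all 4 libraries HP also exceeded LP, by a median log2 ratio of 0.92. Of 4 immune markers none had a peak in any library, and of 4 keratinocyte, 4 fibroblast and 3 endothelial markers 0 to 1, 1 to 2 and 0 to 2 had one, with summed scaled pileups of at most 1.17, 2.09 and 1.39.

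The HP lists held more peaks and more covered sequence over the 8 genes than the LP lists, and most of the added peaks lay at Pde4d. The 4 lists had 64 and 72 peaks at these genes in LP and 87 and 101 in HP, a ratio of 1.38, where the whole lists gave 1.09. The covered length was 20965 and 33097 bp in LP against 44730 and 65050 bp in HP, a ratio of 2.03 against 1.54 for the whole lists. The 2 HP libraries thus lay above the 2 LP libraries in both measures, and the ratios within replicate 1 (1.36 and 2.13) and within replicate 2 (1.40 and 1.97) were close to the pooled ones. Without Pde4d, a comparison added after seeing the data, the ratio of peaks was 1.04 and that of covered length 1.84. With 2 libraries per population the smallest two-sided p of an exact permutation test is 0.333, and none is given for these totals.

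**Figure D1:**
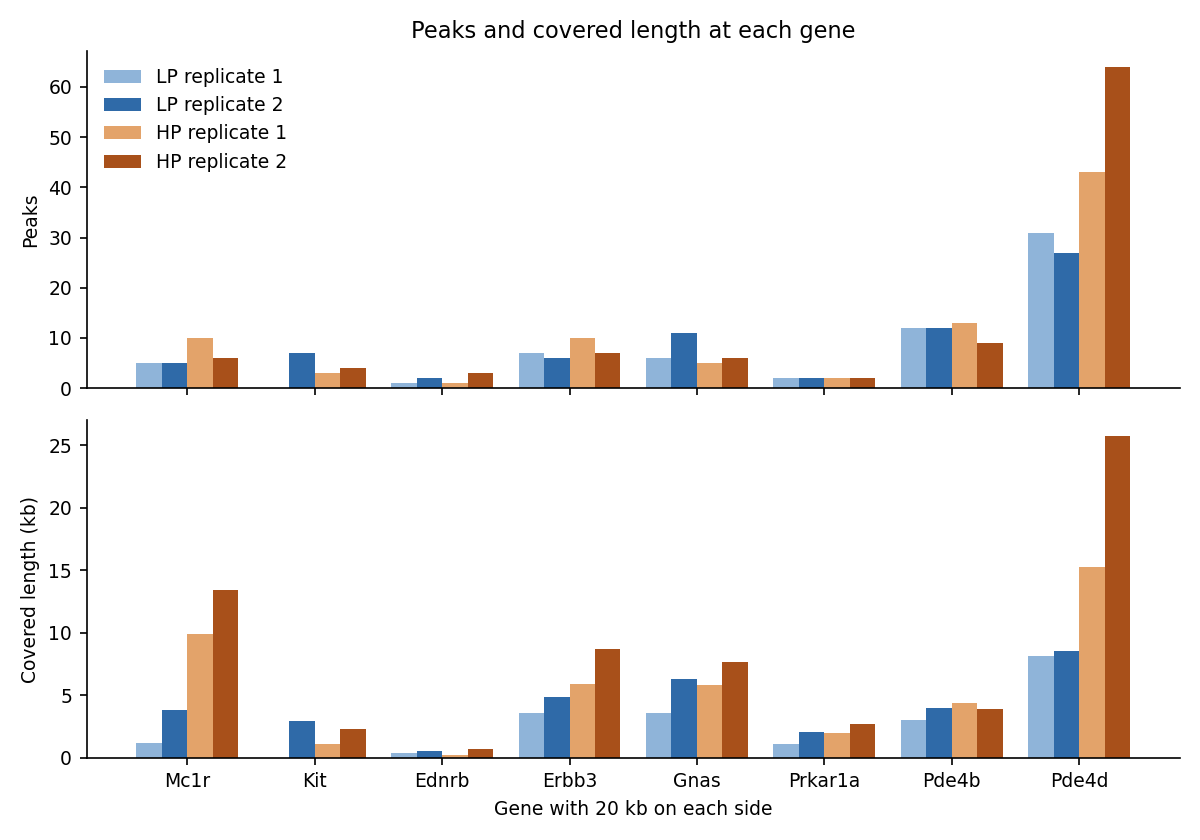
Peaks (top, count) and covered length (bottom, kb) within each of the 8 genes and 20 kb on each side, with 1 bar per library (blue, LP; orange, HP; replicate 1 light and replicate 2 dark). Pde4d had 31 and 27 peaks in LP and 43 and 64 in HP, and Kit had no peak in LP replicate 1.

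Most regions of the 8 genes were found in 1 library only, 184 of 226 (81.4%), which is the share in the whole series (81.7%). Of the rest, 18 were called in 2 libraries, 13 in 3 and 11 in all 4. Regions within 3 kb of an annotated transcript start counted as promoter regions, which held for 59, 40 at starts of the 8 genes themselves and 19 at starts of neighbouring genes. The other 167 regions were non-promoter. Promoter regions were called in all 4 libraries in 10 of 59 cases (16.9%, against 19.8% of all promoter regions), and non-promoter regions in 1 of 167 (0.599%, against 1.53%).

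Regions that both HP libraries and neither LP library carried numbered 11, and 9 of these were non-promoter. They made up 5.39% of the non-promoter regions, against 3.58% in the series, and 3.39% of the promoter regions (2 of 59), against 4.87%. The opposite pattern, both LP libraries and neither HP library, had 0 regions, where 0.249% of all regions of the series showed it. Of the 11 regions, 10 lay at Pde4d and 1 at Pde4b, and the receptors, Gnas and Prkar1a had none. This was 0.648 per 100 kb at Pde4d, 0.429 per 100 kb over the 8 windows and 0.264 per 100 kb over the chromosomes 1 to 19, X and Y. With an overlap of 50% of both peaks in place of 1 bp, 7 peaks of HP replicate 1 had a match in HP replicate 2 and none in LP. By the same rule, 5 peaks of LP replicate 1 matched LP replicate 2 and neither HP library. Each of these 5 lay in a merged region where HP also had a peak, since 0 regions were called in LP only. The 7 and 5 are counts of peaks, and their shares over the series were not computed. The percentages of regions given above do not apply to them.

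Of the 11 regions with a peak in all 4 libraries, 1 passed the test as higher in HP (9.09%) and 0 as lower, where 4.01% of all 12084 regions were called higher (limma on log2 scaled pileup, adjusted over all 12084 regions, threshold 0.05). At an unadjusted p under 0.05, 7 of the 11 were higher (63.6% against 36.2%) and 0 lower. In 9 of the 11 both HP libraries lay above both LP libraries (81.8%, against 74.8% of all regions). With the replicate number as a block the same region passed, while the share of calls in the series fell to 0.728%. A fit without 1 library leaves a single library in a population. Without LP replicate 1, LP replicate 2 or HP replicate 2 the call was lost, as were all calls of the series. It was kept without HP replicate 1, where far more regions of the series passed. The log2 ratio of this region was 1.95 to 2.65 in these fits.

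The whole series shifted the same way, and this sets the scale for the single genes. HP exceeded LP by a median log2 ratio of 0.92 over the 12084 regions, and 99.0% of the ratios were above 0. Values relative to this shift are therefore given too, from libraries centred on their median. HP replicate 2 lay above HP replicate 1 by a median of 0.67 on the log2 scale, while the LP replicates differed by a median of -0.06. The 10 promoter regions of the 8 genes had a median log2 ratio of 1.13, against 0.90 for all promoter regions, and the 7 at their own starts had 1.18. The 1 non-promoter region had 1.46, against 1.06 for all non-promoter regions, so with a single region the 2 classes cannot be told apart here.

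Within replicate 1, regions called in both libraries had a median log2 ratio of 1.09 at promoters (10 regions, 9 above 0), against 0.52 for all promoter regions, and of 0.61 at non-promoter sites (4 regions, 3 above 0), against 0.63. Within replicate 2 the medians were 1.30 at promoters (16 regions, 15 above 0), against 1.17, and 0.69 at non-promoter sites (9 regions, 8 above 0), against 0.69. At non-promoter sites shared by LP and HP, the medians of the 8 genes were thus near those of the series in both replicates.

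**Figure D2:**
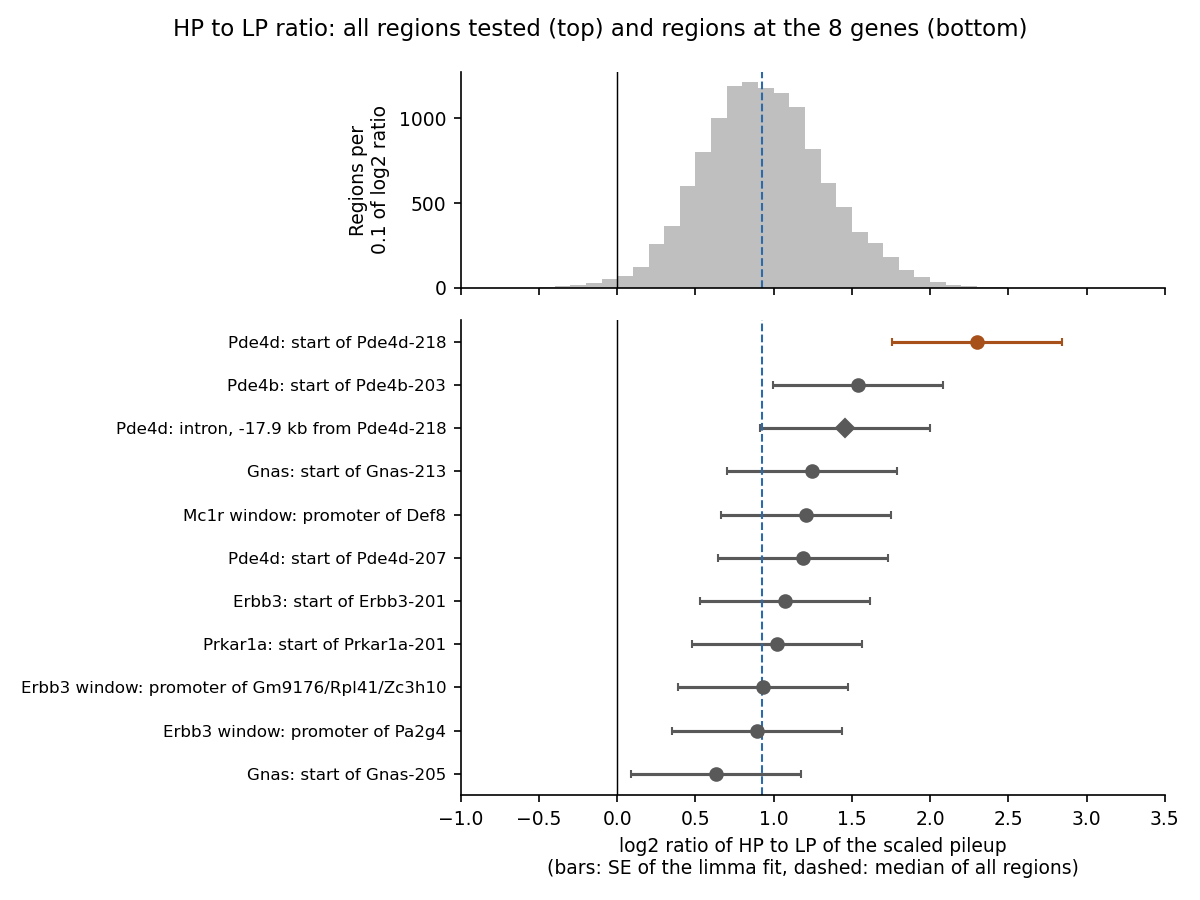
Top: number of regions per 0.1 of the log2 ratio of HP to LP, for all 12084 regions called in all 4 libraries. Bottom: the same ratio for the 11 regions at the 8 genes with the standard error of 0.54 (circle, promoter; diamond, non-promoter; orange, adjusted p of at most 0.05). The region at Pde4d-218 lies farthest right at 2.30, and the region at Gnas-205 lies below the dashed median of 0.92.

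Mc1r (chr8:123407107-123410744, a gene of 1 exon) had its own promoter region in LP replicate 2 with a scaled pileup of 0.85 and in HP with 1.65 and 2.31, and LP replicate 1 had no peak there. Both HP libraries were thus above the LP library that had a peak, but the region could not enter the test. It spanned 7671 bp in the merged lists, up to the starts of Gm38092 and Tubb3, so its covered length is not that of Mc1r alone. Within 1 kb of the Mc1r start the values were 0.782 in LP replicate 2 and 1.48 and 2.31 in HP, with fold enrichments over the local background of 5.03, 9.30 and 16.2. The Mc1r window as a whole had 1191 and 3804 bp under peaks in LP against 9922 and 13417 bp in HP, a ratio of 4.67, the highest of the 8 genes. Its 1 region with peaks in all 4 libraries, at the start of the neighbour Def8, had 1.74 and 2.08 in LP against 3.4 and 5.68 in HP, and its log2 ratio of 1.20 ± 0.54 (SE, n = 2 per group) did not pass (limma adjusted p = 0.111) and was 0.19 relative to the median of the libraries.

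Kit, which has its promoter at chr5:75574916-75574955, had no promoter region that more than 1 library shared. LP replicate 2 had a peak of 0.847 at the start of Kit-201 and Kit-204, from 13 fragments, and the other 3 libraries had none there. LP replicate 1 had no peak in the whole window of 122 kb. The region that most libraries shared lay downstream of the gene, at chr5:75661714-75662869, with 0.716 in LP replicate 2 and 0.958 and 1.33 in HP. A neighbouring region at chr5:75657307-75658333 had 0.912 in LP replicate 2 and 0.912 in HP replicate 2. At Kit the lists therefore gave no promoter value to compare.

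Ednrb had few peaks, with 1 and 2 in LP and 1 and 3 in HP over 69.8 kb. Its promoter region was called in HP replicate 2 only, at 0.351, from 5 fragments, the lowest pileup of that list. A single region was shared by 2 libraries, 39.3 kb from the nearest start and outside the gene, with 0.521 in LP replicate 2 and 0.435 in HP replicate 1. No region of Kit or Ednrb had a peak in all 4 libraries, so a difference between LP and HP was not tested for either gene.

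Erbb3 had its promoter region (chr10:128588227-128590808) in all 4 libraries, with 1.74 and 3.0 in LP and 4.01 and 5.75 in HP. The groups did not overlap, and the log2 ratio of 1.07 ± 0.54 (SE, n = 2 per group) did not pass (limma adjusted p = 0.136). Relative to the median of the libraries it was 0.06. A region in its first intron, 2.35 kb from the start, had no peak in LP replicate 1, 0.847 in LP replicate 2, and 1.22 and 2.03 in HP. The 2 regions at starts of neighbours of Erbb3, Rpl41 with Zc3h10 and Pa2g4, had log2 ratios of 0.93 and 0.90, near the median of the series.

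Gnas makes several products from alternative starts, and the highest peaks lay at that of Gs-alpha. The region over Gnas-205 (chr2:174328994-174332109) had the highest scaled pileup of the 8 genes, 14.2 and 6.84 in LP and 13.6 and 17.2 in HP. LP replicate 1 lay above HP replicate 1, so the groups overlapped, and the log2 ratio of 0.63 ± 0.54 (SE, n = 2 per group) did not pass (limma adjusted p = 0.313). It was -0.07 within replicate 1 and 1.33 within replicate 2, and it turned to -0.38 relative to the median of the libraries and to -0.01 after quantile normalization. The starts at chr2:174284320-174284320 and chr2:174297859-174297859, each upstream of the Gs-alpha start, had no peak within 1 kb in any library. A second region in all 4 libraries covered the 3′ part of the gene, at the start of the non-coding Gnas-213 and near Gm20721. It had 0.959 and 1.37 in LP and 1.92 and 3.86 in HP (log2 ratio 1.25 ± 0.54, SE, n = 2 per group, limma adjusted p = 0.103, and 0.24 relative to the median of the libraries). Its summits spread over 2019 bp, so the ratio does not compare a single site. Within 1 kb of the Gnas-213 start LP replicate 2 had 1.24.

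Prkar1a, the regulatory subunit that holds protein kinase A inactive without cAMP, had 2 peaks in each of the 4 libraries. Its promoter region (chr11:109650065-109652090) had 6.37 and 3.32 in LP and 9.40 and 9.26 in HP. Both HP libraries lay above both LP libraries, yet the log2 ratio of 1.02 ± 0.54 (SE, n = 2 per group) did not pass (limma adjusted p = 0.148), and it was 0.01 relative to the median of the libraries. The LP replicates were farther apart here than the HP replicates, but the standard error was the one shared by all regions tested.

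Pde4b had 8 clusters of starts along the gene, merged where starts lay within 500 bp, and 1 of them carried a peak in all 4 libraries. This region at Pde4b-203 (chr4:102569798-102571093) had 1.57 and 1.95 in LP and 3.57 and 7.23 in HP, with the summit 0.59 kb into the transcript. The groups did not overlap, and the log2 ratio of 1.54 ± 0.54 (SE, n = 2 per group) was just short of the threshold (limma adjusted p = 0.0624, and 0.076 with the replicate block). It was 0.52 relative to the median of the libraries, and 92.5% of all regions had a lower ratio. In its introns, 1 region was called in both HP libraries and neither LP library, at 0.522 and 1.12. Another, at chr4:102511300-102512001, had no peak in LP replicate 1, 0.977 in LP replicate 2, and 1.31 and 3.02 in HP.

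Pde4d carried the region that passed the test. At the start of Pde4d-218 (chr13:109259909-109261482, in intron 3 of the long transcript Pde4d-209) the LP libraries had 1.05 and 0.782 and the HP libraries 3.48 and 5.68 (scaled pileup), from 12 and 12 fragments in LP and 40 and 81 in HP. Both HP values were thus more than 3 times either LP value. The log2 ratio was 2.30 ± 0.54 (SE, n = 2 per group, limma adjusted p = 0.028, and 0.0427 with the replicate block). The call was lost with the mean of the summit pileups in place of the highest (limma adjusted p = 0.114), where no region of the series passed. It was also lost without LP replicate 1, LP replicate 2 or HP replicate 2, as were all calls of the series. The log2 ratio was then 2.51, 2.09 and 1.95. The log2 ratio was 1.73 within replicate 1 and 2.86 within replicate 2, and 99.9% of all 12084 regions had a lower ratio. Relative to the median of the libraries the log2 ratio was 1.29, and no region of the series passed the test in centred libraries.

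**Figure D3:**
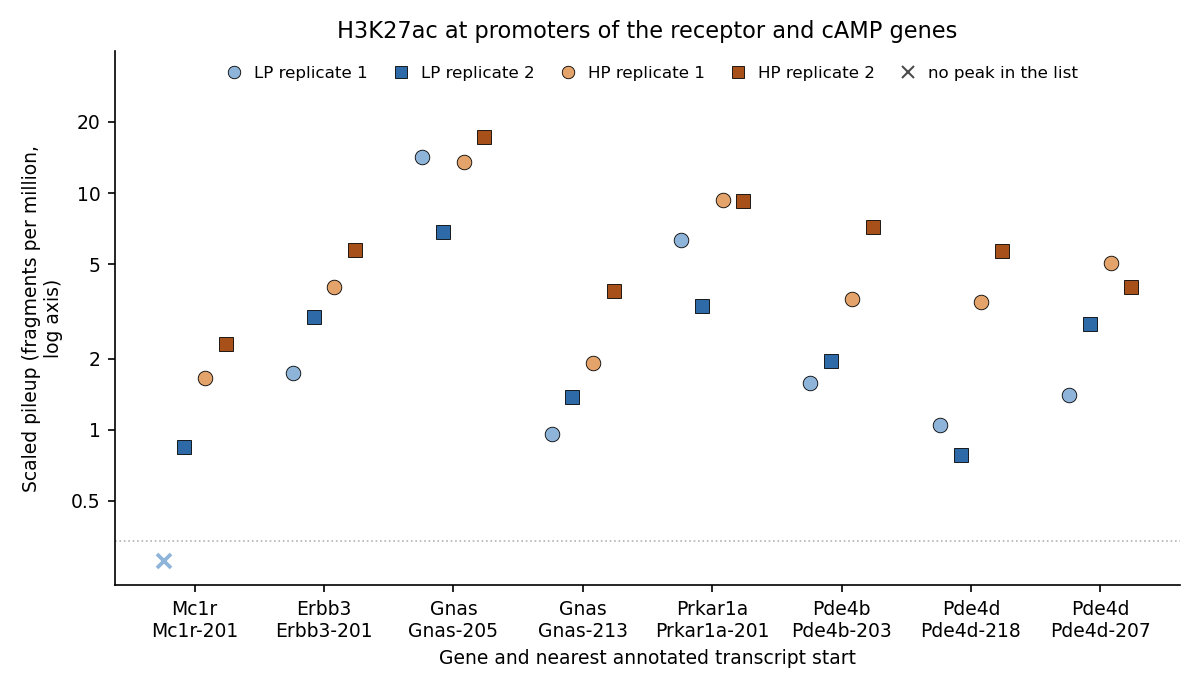
Scaled pileup (pileup per 1000000 fragments, log axis) at the promoter regions of the 8 genes that had a peak in all 4 libraries and at Mc1r, with 1 point per library (circle, replicate 1; square, replicate 2) and a cross below the dotted line where the list had no peak. At Pde4d-218 the HP points at 3.48 and 5.68 are well above the LP points at 1.05 and 0.782, whereas at Gnas-205 the points of LP and HP overlap.

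The other Pde4d promoter with peaks in all 4 libraries, at the starts of Pde4d-206 and Pde4d-207 (chr13:109902423-109903678), had 1.40 and 2.80 in LP and 5.05 and 4.0 in HP. Its log2 ratio of 1.18 ± 0.54 (SE, n = 2 per group) did not pass (limma adjusted p = 0.114) and was 0.17 relative to the median of the libraries. The difference between these 2 promoters of Pde4d was not tested. The most upstream cluster, Pde4d-211 with Pde4d-215, had no peak in LP replicate 1, 0.977 in LP replicate 2, and 0.784 and 2.17 in HP. Of the 15 clusters of Pde4d starts, 9 had no peak within 1 kb in any library.

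**Figure D4:**
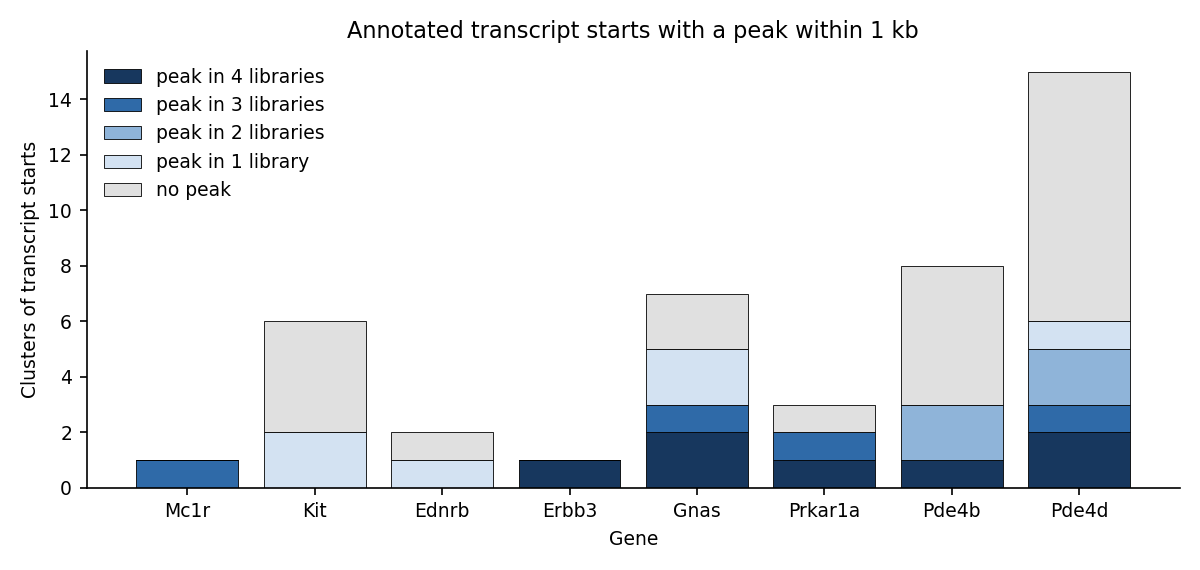
Number of clusters of annotated transcript starts per gene, divided by the number of libraries with a peak within 1 kb (dark blue, 4 libraries; grey, none). Of 43 clusters, 7 had a peak in all 4 libraries and 22 in none, 9 of these at Pde4d.

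Peaks around Pde4d-218 were also listed more often in HP. Of the 14 regions within 50 kb of this start that at least 2 libraries shared, 7 were called in both HP libraries and neither LP library. In the rest of the Pde4d window this held for 3 of the 8 regions that at least 2 libraries shared, and in the series for 21.5% of 33485. The 14 regions spanned chr13:109211643-109305436, that is 93.8 kb or 6.08% of the Pde4d window. This stretch was chosen after its values were seen and was not tested. It had 4 and 6 peaks in LP and 19 and 18 in HP, over 1652 and 1684 bp in LP against 7294 and 10505 bp in HP, ratios of 3.70 and 5.34. In the rest of the window there were 27 and 21 peaks in LP and 24 and 46 in HP, and the covered length had a ratio of 1.74.

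The region of highest scaled pileup among those called only in HP lay 20.5 kb upstream of Pde4d-218, with 1.74 and 2.74 in the HP libraries and fold enrichments of 11.7 and 19.7. The next was 30028 bp upstream, with 1.22 and 1.96, and the one after that, outside this stretch, lay 1.05 kb upstream of Pde4d-205, with 1.39 and 0.842. The lowest scaled pileup that these HP lists held was 0.435 and 0.351. At 17.9 kb upstream of Pde4d-218 lay the intronic region with peaks in all 4 libraries, which had 0.698 and 0.782 in LP and 1.39 and 2.95 in HP. The groups did not overlap there, and the log2 ratio of 1.46 ± 0.54 (SE, n = 2 per group) did not pass (limma adjusted p = 0.0733) and was 0.45 relative to the median of the libraries. Also outside the stretch, the region with the cAMP response element, 44.6 kb upstream of Pde4d-202, had 1.39 and 0.561 in the HP libraries.

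**Figure D5:**
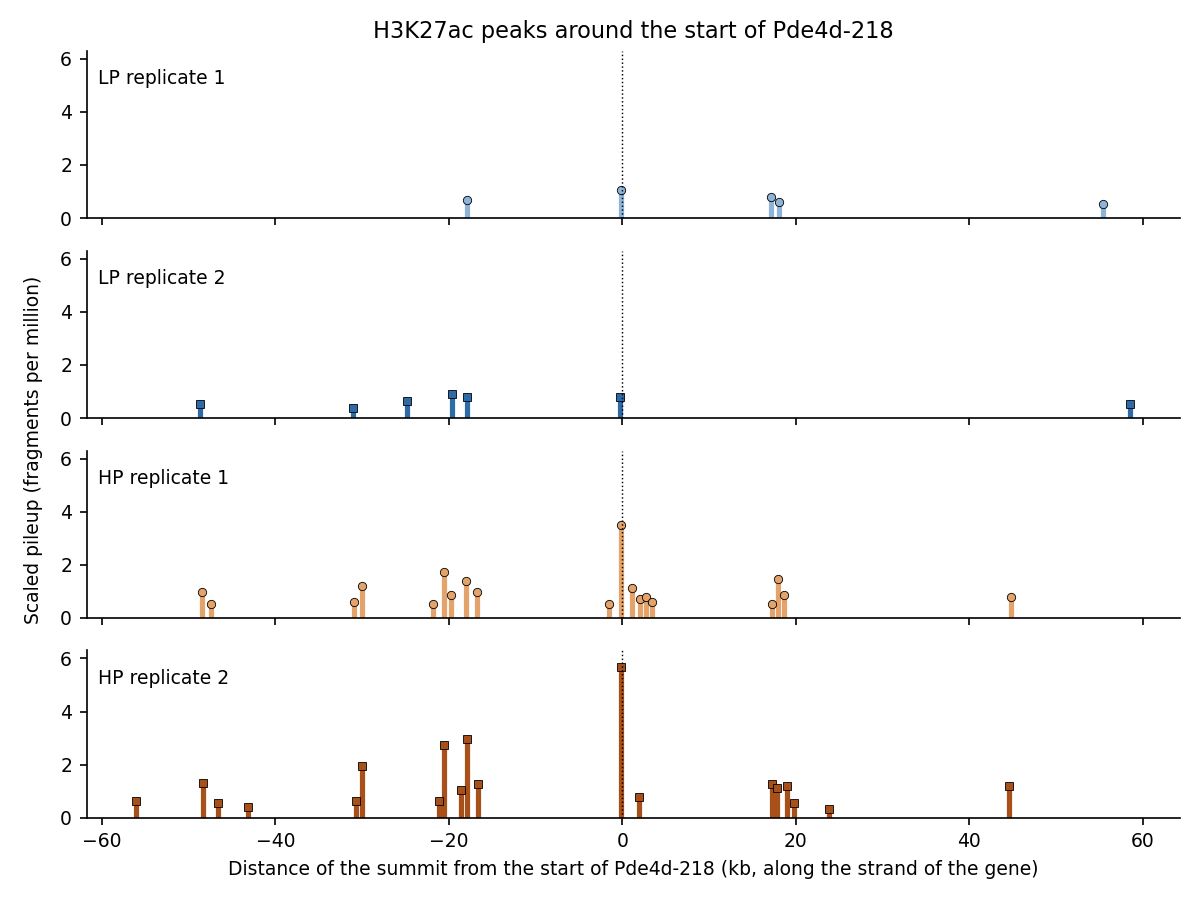
Scaled pileup (pileup per 1000000 fragments) of each peak within 60 kb of the start of Pde4d-218 against the distance of its summit from that start (kb, along the strand of the gene), with 1 panel per library and the highest peak shown where a merged region holds several. The tallest peak in both HP panels is at the start itself, at 3.48 and 5.68, and no peak in the LP panels is above 1.05.

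The 43 other genes of cAMP signalling covered adenylyl cyclases, inhibitory G proteins, protein kinase A subunits, inhibitors and anchoring proteins, and other phosphodiesterases. They also covered the exchange factors Rapgef3 and Rapgef4, CREB factors and their coactivators, and salt-inducible kinases. In the limma fit, 27 of the 43 had a promoter region in all 4 libraries, with 1 region counted per gene. Of these 1 was higher in HP (3.7%, near the 4.01% of all regions) and 0 were lower. At an unadjusted p under 0.05, 6 of the 27 were higher (22.2%, against 36.2% of all regions). The median log2 ratio was 0.85, where all promoter regions had 0.90. The gene that passed was Pde4a, the third PDE4 gene measured here, with 0.61 and 1.17 in LP and 2.70 and 3.86 in HP. Its log2 ratio of 1.93 had a limma adjusted p of 0.0391, or 0.0528 with the replicate block, and 0.92 remained relative to the median of the libraries. The fourth, Pde4c, had no promoter region in all 4 libraries. Values near or below the median were seen at Creb1, the cAMP-responsive factor, with 0.67, and at Prkar2a, another regulatory subunit, with 0.21.

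Of 24 other genes of receptor signalling, 6 had a promoter region in all 4 libraries, the receptors Erbb2, Met and Igf1r, the adaptors Grb2 and Shc1, and the ubiquitin ligase Mgrn1. Of these 0 passed in either direction (limma, against 4.01% of all regions called higher, and 0 with the replicate block), while an unadjusted p under 0.05 was reached by 2, each higher in HP (33.3%, against 36.2%). Their median log2 ratio was 0.86. Erbb2, the partner of Erbb3 in neuregulin signalling, had 1.13 and 1.56 in LP against 3.92 and 3.37 in HP, with a log2 ratio of 1.45 (limma adjusted p = 0.0748), or 0.44 relative to the median of the libraries. The ligands Kitl, Edn1, Edn2, Edn3 and Nrg1 had no promoter region that all 4 libraries shared.

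The protein-coding genes with the most similar promoter values were found by the Euclidean distance over the 4 log2 scaled pileups, among 9269 promoter regions outside the 8 windows. For the region at Pde4d-218 this was Abl2 at a distance of 0.325, with 0.959 and 0.847 in LP and 3.22 and 4.77 in HP. The nearest to Pde4b-203 was Adamts1 (0.14), to Erbb3 Bcar1 (0.124), to Prkar1a Zfp629 (0.0891), to Pde4d-207 Grasp (0.0811), to Gnas-205 a region shared by Itsn2 and Gm3625 (0.0685) and to Gnas-213 Rgs3 (0.134). The region at Pde4d-218 thus had the least close match of the 7. In these bulk libraries, more cells with the mark and more of the mark per cell cannot be told apart. Of the log2 ratios of all 12084 regions, 99.0% were above 0, with a median of 0.92, and none passed in centred libraries. Whether this shared shift came from the mark or from technical differences between the libraries was not tested.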

How the data were processed

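H3K27ac ChIP-seq libraries of LP and HP cells, 2 of each, were analysed from the peak lists. The authors trimmed the reads with Trimmomatic 0.33, aligned them to mm10 with Bowtie2 2.5.1 and ran MACS 3.0.0b1 on each library by itself, with IgG of the matching replicate as control. The deposited lists give the pileup signal at the summit as whole fragments without scaling, the fold enrichment (a ratio to the local background), −log10 p-values and q-values, and a display score, which was not used. The labels give 1% formaldehyde for 10 min of fixation.

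From these, peaks sharing 1 bp were merged into regions with the highest summit pileup per library, scaled to 1000000 fragments. Only regions with a peak in all 4 libraries were tested, with no pseudocount, by limma 3.58.1 in R 4.3.3 with Benjamini-Hochberg adjustment. The prior degrees of freedom were infinite, so that every region had the same standard error. limma was also run on simulated regions with independent noise of the same spread in every region and no shared shift. Those runs therefore do not bear on the calls made here. Promoters, starts and genes came from GENCODE M21. Sequences were read with samtools 1.23.1 and pysam 0.24.0 from GRCm38.p6, and 200 of 200 RefSeq promoters compared matched it by coordinates. Python 3.11.15 and pandas 2.3.3 were used.

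Per the labels, equal DNA was used within each replicate set, which pairs the replicate numbers, although the change from replicate 1 to 2 in LP had a correlation of only 0.0153 with that in HP. limma was run without the replicate block, which was kept as an alternative. Named regions were those called in all 4 libraries, the own promoters, and the regions called in both libraries of 1 population only, with the 3 of highest mean scaled pileup where a gene had over 6. The Pde4d region with a cAMP response element was named after its values were seen. The 8 genes and all lists were chosen with earlier results of these data known. Read counts over regions were not used here, so DiffBind was not run, and of the 26 symbols of receptor signalling genes 2 had no match. Precision is limited by depth, with as few as 5 fragments under a peak.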

Additional observations from a re-analysis of the deposited data

How the results depend on the processing

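Depth limits these results: 76.6, 44.4, 58.6 and 48.5% of the peaks in LP 1, LP 2, HP 1 and HP 2 rested on at most 10 fragments. The count of member regions called higher in HP was 1 of 11. It was 0 in libraries centred on their median, 0 after quantile normalization and 0 with the mean of the summit pileups. In each of these 3 settings 0 of all 12084 regions were called. The log2 ratio at Pde4d-218 then was 1.29, 1.28 and 2.30, and it was 1.95 to 2.65 when a library was left out. Leaving out a library leaves a single library in a population. The call was lost without LP replicate 1, LP replicate 2 or HP replicate 2, as were all calls of the series. It was kept without HP replicate 1, where far more regions of the series were called. The cause was not tested. Centring and quantile normalization turned the ratio of the Gnas-205 region to -0.38 and -0.011, and those of the Erbb3 neighbours to -0.080 and -0.077 for Rpl41 and -0.12 and -0.20 for Pa2g4. They moved the promoter median to 0.12 and 0.15 and the non-promoter value to 0.45 and 0.44, by removing the shift that all regions share. Without a library the promoter median was 0.82 to 1.48. The replicate block changed no call at the 8 genes.

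With an overlap of 50% of both peaks, 7 peaks were shared by the HP libraries without an LP match (5 non-promoter). At that overlap 5 peaks were shared by the LP libraries without an HP match, each in a merged region where HP also had a peak. The shares of all peaks of the series at that overlap were not computed. Without Pde4d, 1 region was called only in HP (0 promoter and 1 non-promoter). With 1 replicate of each population, 64 to 75 regions were called only in HP (14 to 15 promoter, 49 to 61 non-promoter), and 42 to 44 only in LP. The means of these counts over the 2 replicate numbers were 69.5, 14.5, 55 and 43. They follow a rule of 1 HP library against 1 LP library, and no block was fitted for them. The share of all regions of the series under this rule was not computed, so these counts cannot be set against the series. The promoter count was 1 at a q-value of at most 0.001 and 4 with 50 kb on each side. The ratio of peaks was 1.47 at a q-value of at most 0.001, 1.19 with lists of equal size, 1.5 in gene bodies and with 3 kb, 1.44 with 50 kb, and 1.04 without Pde4d. That of covered length was 2.25 at a q-value of at most 0.001, 1.91 with lists of equal size and 1.84 without Pde4d. Without 1 replicate number they were 1.36 to 1.40 and 1.97 to 2.13. The exclusion of Pde4d was chosen after seeing the data.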
